A study of Mus musculus with 8 samples.

Results

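Neurotrophic factors and their receptors were examined in the lumbar spinal cord of SOD1G93A mice, which carry a mutant human *SOD1* transgene and develop motor neuron disease. The set held 9 genes of the 55291 in the raw count table, chosen by symbol: the ligands *Bdnf*, *Ntf3*, *Gdnf*, *Cntf* and *Nrg1*, and the receptors *Ntrk2*, *Ngfr*, *Ret* and *Gfra1*. The 8 mice were males on a C57BL/6J background, 4 in each genotype. The *Ager*-deleted mice were SOD1G93A Agerfl/fl Cx3cr1Cre/+ (replicate 1 is E1776, 2 is E5231, 3 is E5248 and 4 is E5568), and the Cre control mice were SOD1G93A Ager+/+ Cx3cr1Cre/+ (replicate 1 is E5386, 2 is E5642, 3 is E6578 and 4 is E6732). Values per mouse are listed below from replicate 1 to replicate 4 of each genotype, an order that carries no meaning. *Ager* encodes RAGE, the receptor for advanced glycation end products.

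Both genotypes carried the transgene and a tamoxifen-inducible Cre in the *Cx3cr1* locus, so that all 8 mice had 1 disrupted *Cx3cr1* allele, and both received tamoxifen. No wild-type or untreated mice were analysed here. Cx3cr1-driven Cre acts in microglia and other cells of the mononuclear phagocyte lineage, whereas the RNA was from whole lumbar cord. The labels give tamoxifen at 12 weeks and an age of 120 days for all 8 mice, and the study's text describes the sequenced tissue as end-stage. In bulk RNA, fewer cells of a type and less RNA per cell cannot be told apart.

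Neurotrophic factors are secreted proteins that support the survival, growth and synaptic function of neurons. BDNF and neurotrophin-3 signal through Trk receptor kinases and share the receptor p75NTR. GDNF binds GFRα1, which presents it to the receptor kinase RET, and CNTF acts through CNTFRα with the LIF receptor and gp130. Neuregulin-1 acts through ErbB kinases, on which Schwann cells depend. GDNF, CNTF and BDNF are classic survival factors for motor neurons.

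Total counts on genes were between 31148047 and 40324897 per mouse, and 3 counts, taken as the smallest detectable amount, equalled 0.0729 to 0.0975 CPM. CPM stands for counts per 1e6 counts after scaling with edgeR's TMM factors, and the floor covers counting error alone. Markers of spinal cord cells were detected in every mouse, with summed levels of 90.7 to 157 CPM over 6 motor neuron markers and 877 to 1302 CPM over 6 microglial markers. Libraries stood apart in tissue other than cord. The 11 skeletal muscle markers summed to 950 CPM in control E5386 and 1480 CPM in control E5642, against 9.95 to 28.9 CPM in the other 6 mice. The 6 liver markers summed to 604 CPM in control E6732 against 1.31 to 2.58 CPM elsewhere, and the 8 Schwann cell markers to 161 CPM in control E5386 against 446 to 1277 CPM elsewhere. All 5 of the meningeal fibroblast markers were lowest in control E5386 as well.

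*Ager* itself was measured first. It was at 0.889, 1.51, 1.02 and 1.34 CPM in the *Ager*-deleted replicates, whereas the values were 1.53, 2.22, 2.18 and 2.41 CPM in the control replicates. All 4 *Ager*-deleted mice were below all 4 controls, and the fitted log2 fold change (*Ager*-deleted over Cre control, as throughout) was -0.81 ± 0.22 (SE). The adjusted p (edgeR) was 0.252 by the exact and 0.705 by the quasi-likelihood method, and the exact permutation test over mice gave p = 0.0286, the smallest that 4 mice against 4 allow. Leaving out control E5386 brought the adjusted p of the edgeR exact test to 0.0442. With any other single mouse left out, that adjusted p was 0.293 (without *Ager*-deleted E5231) or higher.

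The comparison of the 2 genotypes asked whether loss of *Ager* in these cells was accompanied by a difference in trophic ligands or receptors. None of the 8 tested members was below the threshold of 0.05 for the adjusted p (edgeR): the exact test called 0.0719% of the 19470 genes tested and the quasi-likelihood test 0.00514%. DESeq2 and limma-voom called 0 of the 8 as well. *Ntf3* was below the filter on low counts and was not tested. *Cntf* was the 1 member of 8 with an unadjusted p under 0.05, in both tests, where 4.26% of all genes had one by the exact and 6.71% by the quasi-likelihood method. For none of the 9 members did the CPM of the genotypes fail to overlap, which was so for 3.88% of all genes. The fitted values were lower in *Ager*-deleted mice for 6 tested members and higher for 2 (*Ntrk2* and *Ret*), with a median log2 fold change of -0.16 against 0.0069 over all genes tested. All 4 of the tested ligands, together with *Ngfr* and *Gfra1*, made up the 6. With scaling by library size alone the split was 5 to 3, through *Gfra1*. Over all genes tested, fitted values were higher in *Ager*-deleted mice for 10122 and lower for 9348. By library size alone, 11518 of all genes tested were higher and 7952 lower.

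**Figure D1:**
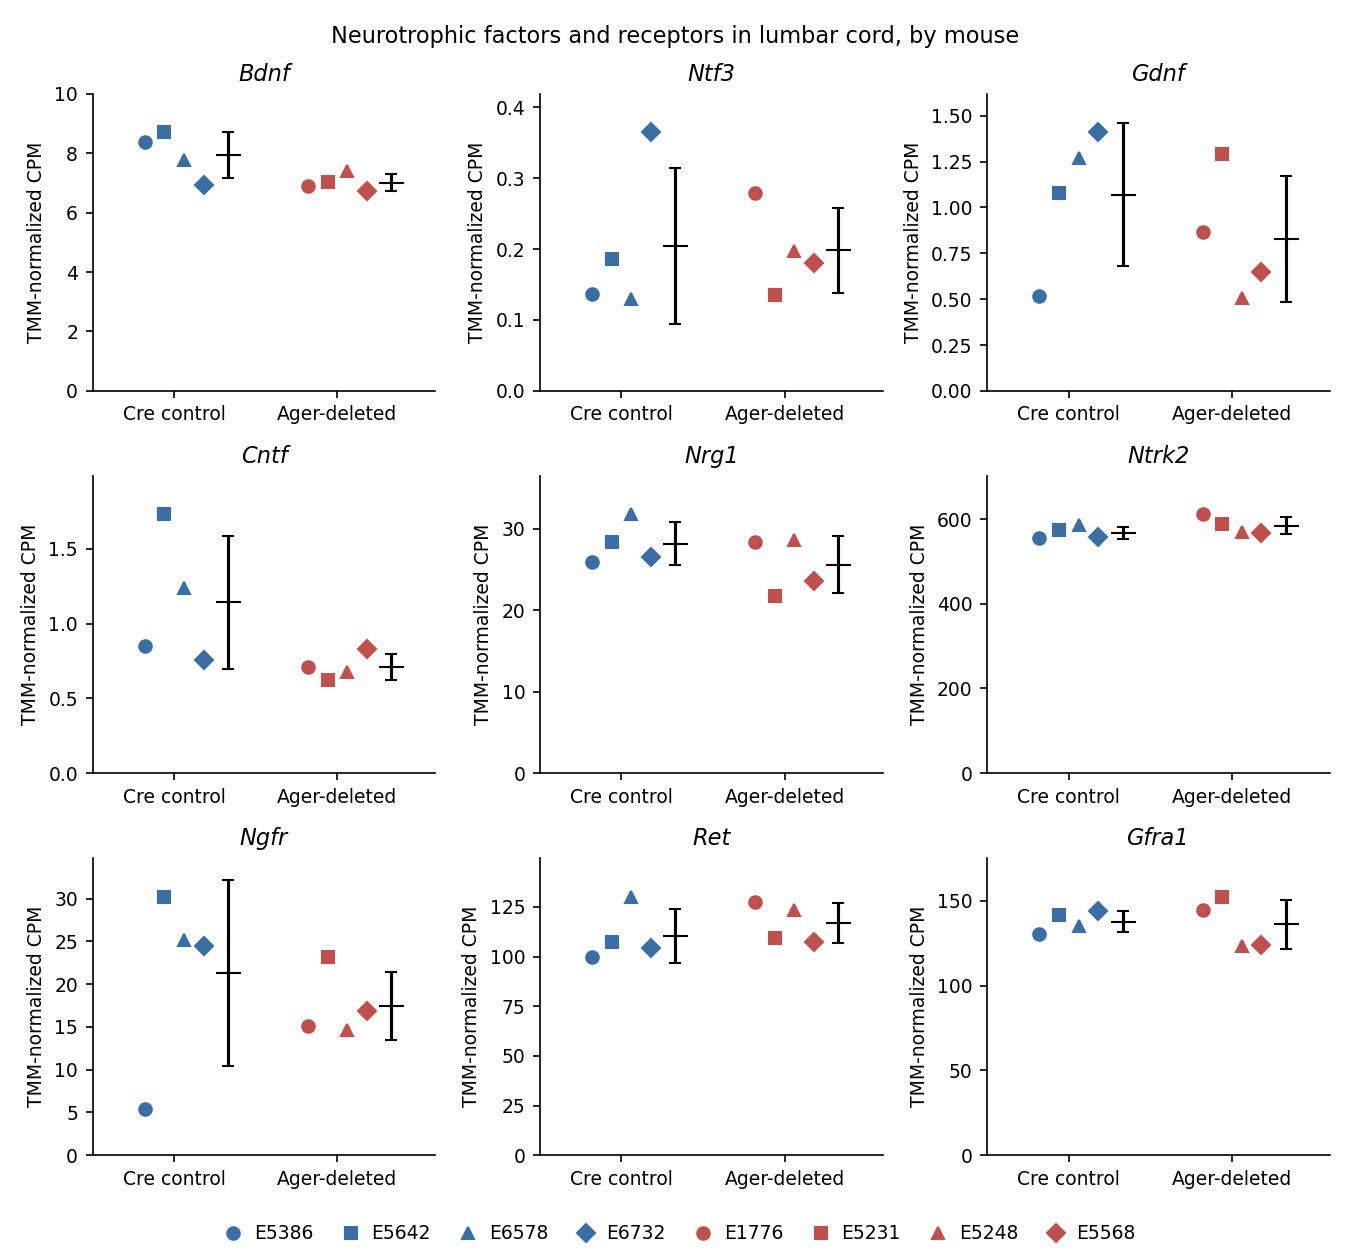
Level of each of the 9 genes in TMM-normalized CPM (linear axes from 0, each gene on its own scale) in the 4 Cre control mice (blue) and the 4 *Ager*-deleted mice (red). Symbols are single mice, and the black bars show the mean ± SD of each genotype. The genotypes overlap for every gene, and the single low control for *Ngfr* is E5386 at 5.42 CPM.

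Among the ligands, *Cntf* had the largest fitted difference of the 8 tested members. *Cntf* encodes ciliary neurotrophic factor, made mainly by astrocytes and Schwann cells. It was at 0.711, 0.62, 0.677 and 0.827 CPM in the *Ager*-deleted replicates, and at 0.848, 1.73, 1.23 and 0.754 CPM in the control replicates. The *Ager*-deleted mice lay close together, at 0.709 ± 0.0873 CPM (SD, n = 4), and 3 of the 4 controls were above all of them, while E6732 was within their range. The controls were at 1.14 ± 0.444 CPM (SD, n = 4), with E5642 the highest mouse.

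The log2 fold change of *Cntf* was -0.67 ± 0.28 (SE, 95% interval -1.28 to -0.059), with p = 0.0311 before and 1.0 after adjustment (edgeR exact test). The adjusted p was 0.742 by the quasi-likelihood method and 0.721 by DESeq2. The exact permutation test over mice gave p = 0.0571. With 1 mouse left out, that p (exact permutation) was between 0.0286, without E6732, and 0.2, without *Ager*-deleted E5231. E6732 was the 1 control that overlapped, so its removal left the genotypes fully apart, and 0.0286 is the smallest p then possible. With control E5642 left out the log2 fold change was -0.40. These values rest on 23 to 56 counts per mouse. *Cntf* (chromosome 19, 12763660 to 12765632, minus strand, GRCm38) lies within *Zfp91* on the same strand, and 847 of its 1073 exonic bases are also annotated as exon of *Zfp91*. *Zfp91* was at 172.1 to 189.6 CPM in *Ager*-deleted mice and at 195.5 to 212.5 CPM in controls. The genotypes did not overlap for *Zfp91*, as for 3.88% of all genes tested, and E5642 was its highest mouse, as for *Cntf*. Reads in the shared bases cannot be assigned to one gene, so the *Cntf* counts are uncertain. Whether reads of *Zfp91* had a part in the *Cntf* difference was not tested.

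*Bdnf* (chromosome 2, 109674700 to 109727007, plus strand) encodes the ligand of TrkB and p75NTR, released by active neurons and by microglia. Its level was 6.88, 7.04, 7.39 and 6.75 CPM in the *Ager*-deleted replicates. In the control replicates it was 8.37, 8.71, 7.77 and 6.93 CPM. As with *Cntf*, 3 of 4 controls were above every *Ager*-deleted mouse, and E6732 lay within their range.

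The means of *Bdnf* were 7.01 ± 0.279 and 7.94 ± 0.779 CPM (SD, n = 4 each), a log2 fold change of -0.18 ± 0.10 (SE, 95% interval -0.41 to 0.048, edgeR adjusted p = 1.0, exact, and 0.79, quasi-likelihood). The exact permutation test gave p = 0.0857. With 1 mouse left out, that p (exact permutation) was between 0.0286, without E6732, and 0.171, without E5386 or without E5642. Here too E6732 was the 1 control that overlapped, so that 0.0286 is the smallest p possible without it. The controls E5386 and E5642, which held the muscle transcripts, were the highest for *Bdnf*, and without both of them the log2 fold change was -0.072 (p = 0.4 by exact permutation). Whether the other tissue in these libraries had a part in the *Bdnf* values was not tested. The antisense gene Gm45346 covers 14.4% of the exonic bases of *Bdnf* and was at no more than 0.0847 CPM in any mouse.

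*Gdnf* (chromosome 15, 7810846 to 7837575, plus strand) encodes glial cell line-derived neurotrophic factor, the ligand of the GFRα1 and RET complex. It was at 0.864, 1.29, 0.508 and 0.646 CPM in the *Ager*-deleted replicates, and at 0.52, 1.08, 1.27 and 1.41 CPM in the control replicates. Low and high mice were found in both genotypes. On the log2 scale the fold change was -0.37 ± 0.35 (SE, 95% interval -1.15 to 0.42, edgeR exact test, adjusted p = 1.0). With 18 to 58 counts per mouse, the interval spans 0.451-fold to 1.33-fold, and leaving out 1 mouse at a time moved the log2 fold change between -0.66 and -0.20, the latter without *Ager*-deleted E5248 or without control E6732.

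*Ntf3* (chromosome 6, 126101412 to 126166910, minus strand), which encodes neurotrophin-3, the main ligand of TrkC, had 11, 5, 7 and 7 counts in the *Ager*-deleted replicates and 5, 6, 4 and 15 counts in the control replicates. All 8 counts were above the detection floor of 3, and the 2 genotypes overlapped. The means were 0.198 ± 0.0603 and 0.204 ± 0.11 CPM (SD, n = 4 each), and a difference between genotypes was not detectable at this depth (exact permutation test, p = 0.914).

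*Nrg1* (chromosome 8, 31814551 to 32884029, minus strand) encodes neuregulin-1, made by motor neurons among other cells. Its level was 28.4, 21.7, 28.6 and 23.6 CPM in the *Ager*-deleted replicates and 25.9, 28.4, 31.7 and 26.6 CPM in the control replicates. A low pair (E5231 and E5568) and a pair within the control range made up the *Ager*-deleted mice. Single mice moved the log2 fold change, a value near 0, by over 1.5 times. For all 8 mice the log2 fold change was -0.14 ± 0.10 (SE, 95% interval -0.37 to 0.096, edgeR exact test, adjusted p = 1.0). The value was -0.065 without *Ager*-deleted E5231 and -0.073 without control E6578. The 18 annotated transcripts of *Nrg1*, of which 13 are coding and encode several neuregulin-1 types, were counted as 1 gene.

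**Figure D2:**
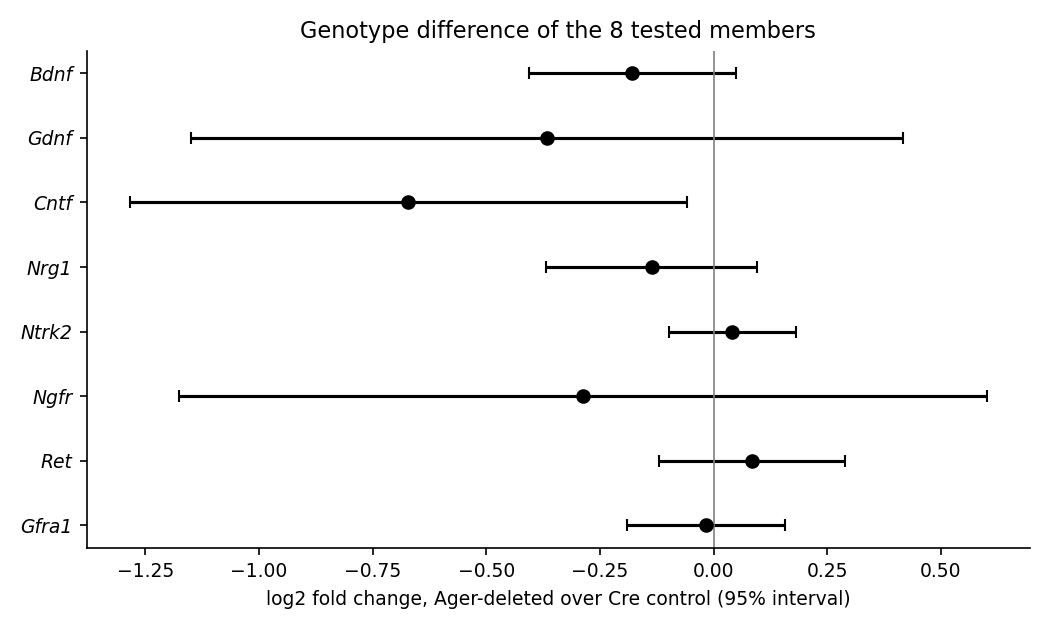
Fitted log2 fold change (*Ager*-deleted over Cre control) of the 8 tested members, with points for the estimate and bars for the 95% interval from the quasi-likelihood fit. The interval of *Cntf* alone lies below 0 (-1.28 to -0.059) before any adjustment for the number of genes, and *Ngfr* and *Gdnf* have the other wide intervals.

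The receptors showed smaller differences, apart from *Ngfr*. *Ntrk2* (chromosome 13, 58806569 to 59133970, plus strand) encodes TrkB, the BDNF receptor, abundant in astrocytes as a truncated form without the kinase and in neurons as the full-length kinase. It was at 611, 589, 570 and 569 CPM in the *Ager*-deleted replicates and at 556, 574, 585 and 557 CPM in the control replicates. The 8 mice differed little, with a coefficient of variation of 3.19%. A log2 fold change of 0.041 ± 0.063 (SE) was fitted (edgeR exact test, adjusted p = 1.0), and its 95% interval of -0.099 to 0.18 spans 0.934-fold to 1.13-fold. The 8 coding transcripts of *Ntrk2* encode between 50 and 821 codons, and counts per gene do not separate full-length from truncated TrkB.

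*Ret* (chromosome 6, 118151745 to 118197718, minus strand) encodes the receptor kinase for the GDNF family, expressed by motor neurons. Its level was 127, 109, 124 and 107 CPM in the *Ager*-deleted replicates and 99.8, 107, 130 and 104 CPM in the control replicates. Of the controls, 3 were below and 1 (E6578) above all *Ager*-deleted mice, with E5642 only just below E5568. *Ret* had a log2 fold change of 0.084 ± 0.092 (SE, 95% interval -0.12 to 0.29, edgeR exact test, adjusted p = 1.0). With 1 mouse left out it was between 0.032, without control E5386, and 0.17, without control E6578, and it was -0.0094 without both E5386 and E5642.

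*Gfra1* (chromosome 19, 58235604 to 58455909, minus strand) encodes the GPI-anchored co-receptor that binds GDNF. It was at 144, 152, 124 and 124 CPM in the *Ager*-deleted replicates and at 130, 141, 135 and 144 CPM in the control replicates. The *Ager*-deleted mice formed a high and a low pair around the controls. *Gfra1* had a log2 fold change of -0.017 ± 0.078 (SE, 95% interval -0.19 to 0.16, edgeR exact test, adjusted p = 1.0), and it was 0.0084 with scaling by library size alone. The ratio of *Gfra1* to *Ret*, each per kilobase of exon, was 1.45 ± 0.202 in *Ager*-deleted mice and 1.56 ± 0.186 in controls (SD, n = 4 each), and the genotypes overlapped (p = 0.457 by exact permutation).

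*Ngfr* (chromosome 11, 95568818 to 95587735, minus strand) encodes p75NTR, which all neurotrophins bind and which is carried by Schwann cells and re-expressed by injured motor neurons. It was at 15.1, 23.2, 14.6 and 16.9 CPM in the *Ager*-deleted replicates, and at 5.42, 30.2, 25.2 and 24.5 CPM in the control replicates. The controls were split, with 3 above and 1 below all *Ager*-deleted mice, and the highest mouse was 5.58 times the lowest. Counting alone would give a coefficient of variation of 3.78%, and the 8 mice had 40.6%.

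The log2 fold change of *Ngfr* was -0.29 ± 0.40 (SE, 95% interval -1.17 to 0.60, edgeR exact test, adjusted p = 1.0), and the permutation over mice, which was exact, gave p = 0.943. Single mice moved these values in both directions. Without control E5386 the log2 fold change was -0.62, and the adjusted p was 0.0881 (edgeR exact test), with p = 0.0571 by exact permutation of the other 7 mice. Without control E5642 the log2 fold change was -0.08, without *Ager*-deleted E5231 -0.46, and with limma-voom over all 8 mice -0.037.

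E5386 was also the lowest mouse for 7 of the 8 Schwann cell markers, and *Pmp2*, one of them, had 0 counts there. Among the *Ager*-deleted mice the order differed. The summed Schwann cell markers were 446, 544, 1185 and 862 CPM in E1776, E5231, E5248 and E5568. The highest of these sums was in E5248, which had the lowest *Ngfr* of that genotype (14.6 CPM). E5231, with the highest *Ngfr* there, had neither the highest nor the lowest sum. The part of peripheral nerve tissue in the *Ngfr* difference was not tested.

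**Figure D3:**
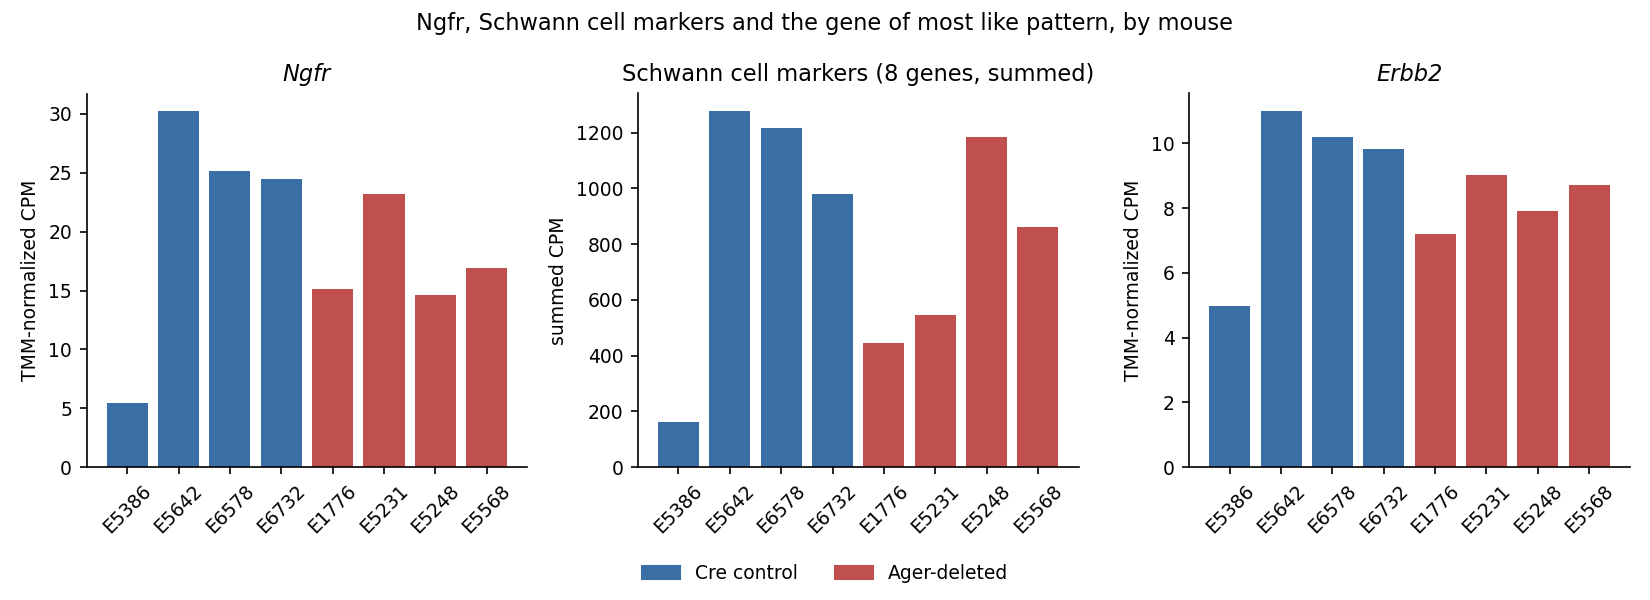
*Ngfr*, the sum of 8 Schwann cell markers and *Erbb2* in TMM-normalized CPM, with 1 bar per mouse from 0 (Cre control blue, *Ager*-deleted red). Control E5386 has the lowest bar in all 3 panels, at 5.42 CPM for *Ngfr* and 161 CPM for the summed markers.

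The genes nearest in pattern were sought for each tested member over the 8 mice, by the root mean square difference of values scaled to z scores, among up to 16081 genes at a mean of 1 CPM or more. This measure is 0 for an identical pattern. *Ngfr* was nearest to *Erbb2*, the signaling partner of the neuregulin receptors (0.179), which was also lowest in E5386 and highest in E5642. *Cntf* was nearest to *Bbox1*, of carnitine synthesis (0.298), and *Hipk1*, a nuclear kinase (0.303). *Ntrk2* was nearest to *Tmem28* (0.198) and *Dlgap4* (0.274), and *Ret* to *Arhgef17* (0.243) and *Slc7a4* (0.26). *Nrg1* was nearest to *Prune2* (0.234) and *Setd7* (0.294), *Bdnf* to A230103L15Rik (0.221) and Gm14443 (0.307). *Gfra1* was nearest to *Fam53b* (0.245) and *Tlr12* (0.269), and *Gdnf* to *Rgs16* (0.272) and *Rarg* (0.285). The points share their libraries and depth, and with 8 mice such nearness is a description of these libraries.

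Levels were compared between members per kilobase of merged exon, as CPM per kb averaged over the 8 mice. By this measure the means of all 4 receptors were above those of the ligands. *Ntrk2* was highest at 29.9 ± 0.952 CPM per kb (SD, n = 8), followed by *Gfra1* at 25 ± 1.9 and *Ret* at 16.8 ± 1.71. *Ntrk2* was above 92.4% of the 19079 tested genes with a known length, *Gfra1* above 90.5% and *Ret* above 84.8%. No mouse's value overlapped between these 3 neighbors, or between *Ret* and *Ngfr*.

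*Ngfr* followed at 5.63 ± 2.29 CPM per kb (SD, n = 8) and *Nrg1* at 2.6 ± 0.304, with ranges that overlapped through E5386. *Bdnf* was at 1.2 ± 0.118 and *Cntf* at 0.862 ± 0.35, which overlapped each other. The place of *Cntf* is uncertain. Had its counts come only from the 226 exonic bases not shared with *Zfp91*, a length chosen after seeing the data, it would be at 4.09 ± 1.66 CPM per kb (SD, n = 8), above the mean of *Nrg1* and with a range of 2.74 to 7.65 that overlaps *Ngfr*. The lowest members were *Gdnf* at 0.258 ± 0.0991 and *Ntf3* at 0.117 ± 0.0479, which also overlapped. *Nrg1* and *Bdnf* did not overlap, nor did *Cntf* and *Gdnf*. *Gdnf* was above 7.91% of genes. *Ntrk2* was therefore at a far higher level per length than its ligand *Bdnf*, and *Ret* and *Gfra1* than their ligand *Gdnf*, in all 8 mice. Merged exons dilute genes with many transcripts. With the longest transcript as the length instead, *Ntrk2* was at 65.9 and *Nrg1* at 4.96 CPM per kb.

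**Figure D4:**
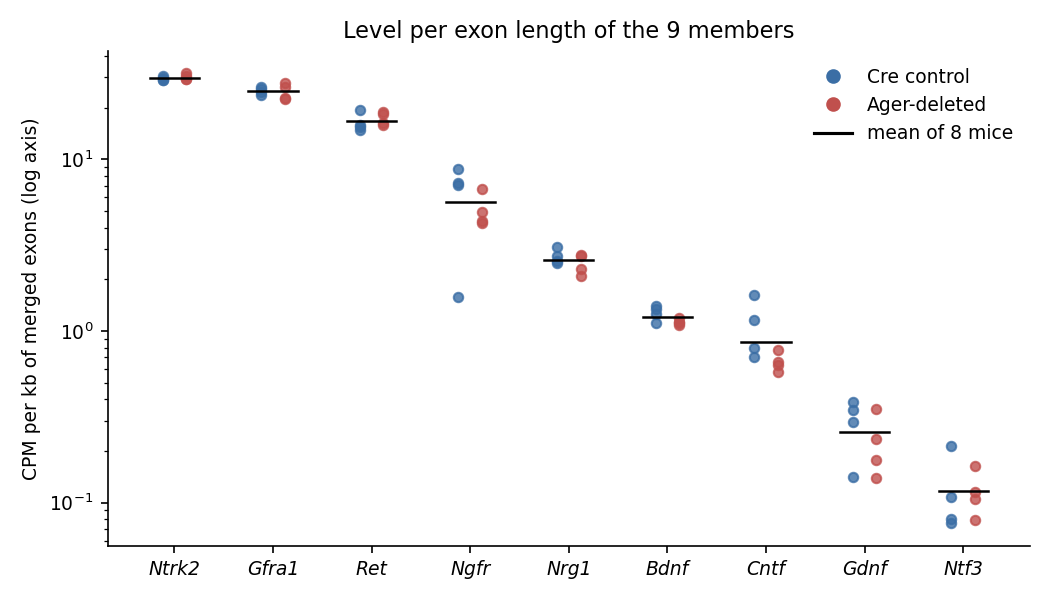
Level per exon length (CPM per kb of merged exons, log axis) of the 9 members, ordered from highest to lowest mean, with 1 point per mouse (Cre control blue, *Ager*-deleted red) and a line at the mean of 8 mice. *Ntrk2* (29.9), *Gfra1* (25) and *Ret* (16.8) are highest, and *Gdnf* (0.258) and *Ntf3* (0.117) lowest.

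The mice differed most, relative to their mean, in *Ntf3*, *Ngfr*, *Cntf* and *Gdnf*, with coefficients of variation over the 8 mice of 40.8%, 40.6%, 40.6% and 38.4%. Counting error alone would give 36.5% for *Ntf3*, 17.4% for *Cntf* and 17.0% for *Gdnf*. The coefficients were 11.7% for *Nrg1*, 10.2% for *Ret*, 9.83% for *Bdnf* and 7.59% for *Gfra1*. *Bdnf* varied less among the *Ager*-deleted mice (3.97%) than among the controls (9.81%), as did *Cntf* (12.3% and 38.9%). Counting error alone would give 6.08% for *Bdnf*, more than the spread of its *Ager*-deleted mice, and the difference in spread was not tested.

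The wider pathway was read from 12 lists holding 100 genes, the 9 members among them, of which 97 were tested. None of the 97 was called after adjustment by either edgeR test or limma-voom, nor by DESeq2, which gave no adjusted p for *Plg*. An unadjusted p under 0.05 was found for 8 by the exact and for 10 by the quasi-likelihood method, and 3 did not overlap between genotypes (*Gfra4*, *Plg* and *Frs3*). These counts are to be read against the shares of all genes given above. The fitted values were higher in *Ager*-deleted mice for 44 and lower for 53, with a median log2 fold change of -0.024 (48 and 49 with scaling by library size alone), and 94 of the 97 were within 0.5 of 0.

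Among the other neurotrophins, *Ntf5*, which encodes neurotrophin-4, was below the filter. Fitted values were higher in *Ager*-deleted mice for 6 of the 7 neurotrophin receptors, the exception being *Ngfr*. The 7 lay between -0.29 and 0.15 on the log2 scale, and none had an unadjusted p under 0.05 in the exact test. *Ntrk3*, which encodes TrkC, was at 125 and 121 CPM in *Ager*-deleted and control mice, and *Sort1*, which encodes sortilin, the partner of p75NTR for proneurotrophins, at 362 and 344 CPM.

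In the GDNF family, 1 of 4 ligands and 1 of 5 tested receptors had an unadjusted p under 0.05 in the exact test, against 4.26% of all genes. *Gfra4*, the receptor of persephin, was at 17.6, 20.1, 20.3 and 22.4 CPM in the *Ager*-deleted replicates and at 17.1, 15.3, 17.6 and 15.8 CPM in the control replicates. Every *Ager*-deleted mouse was above every control, the closest pair being E1776 and E6578. The log2 fold change of *Gfra4* was 0.29 ± 0.088 (SE), with p = 0.0149 before and 0.858 after adjustment (edgeR exact test). *Nrtn*, which encodes neurturin, was at 1.78 to 4.78 CPM in *Ager*-deleted mice and 2.05 to 2.33 CPM in controls, a log2 fold change of 0.55 ± 0.25 (SE, adjusted p = 1.0, edgeR exact test) that was 0.30 without *Ager*-deleted E5568. *Gfra2*, the receptor that prefers neurturin, had a log2 fold change of 0.18 and *Gfra3*, that of artemin, was below the filter.

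Among the ligands of the CNTF family, *Cntf* was the 1 of 5 with an unadjusted p under 0.05 in the exact test (4.26% of all genes). *Clcf1*, which encodes another ligand of the CNTF receptor, had a log2 fold change of -0.25, and *Lif* one of -0.14. The 3 subunits of the receptor lay closer to 0, with *Cntfr* at 0.065, *Lifr* at -0.091 and *Il6st*, which encodes gp130, at -0.024.

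Of the 4 neuregulin genes, *Nrg2* had a log2 fold change of 0.35 ± 0.13 (SE) and p = 0.0345 before and 1.0 after adjustment (edgeR exact test), at 7.65 to 10.5 CPM in *Ager*-deleted mice and 6.54 to 8.21 CPM in controls. Fitted values of all 3 of their receptors were lower in *Ager*-deleted mice, with log2 fold changes of -0.13 for *Erbb2*, -0.21 for *Erbb3* and -0.12 for *Erbb4*, and none had an unadjusted p under 0.05 in either test.

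Of the 12 genes that process ligands, *Plg*, which encodes plasminogen, the precursor of a protease that cleaves proBDNF, had the smallest p. It was at 10.7 CPM in control E6732 and at 0.135 to 0.39 CPM in the other 7 mice. The log2 fold change of -3.46 ± 1.2 (SE, adjusted p = 0.338, edgeR exact test) was -0.44 without that mouse, whose liver markers summed to 604 CPM. Plasminogen is made mainly by liver. The adjusted p of *Plg* was 0.0379 with common and tagwise dispersions. The lack of overlap of *Plg* between genotypes rests on 0.3386 CPM (12 counts) in *Ager*-deleted E5248 against 0.3396 CPM (11 counts) in control E5642.

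The 28 adaptors and signaling genes lay between -0.14 and 0.21 on the log2 scale. *Frs3*, an adaptor that binds Trk receptors, was at 23.8 to 26.5 CPM in *Ager*-deleted mice and 20.3 to 23.0 CPM in controls, a log2 fold change of 0.20 ± 0.070 (SE, p = 0.0482 before and 1.0 after adjustment, edgeR exact test). Of 10 genes whose transcription trophic signaling is known to raise, fitted values of 8 were lower in *Ager*-deleted mice (7 with scaling by library size alone), and 1 had an unadjusted p under 0.05 in the exact test (4.26% of all genes). *Egr1*, an immediate early transcription factor, had a log2 fold change of -0.24 ± 0.095 (SE, p = 0.0381 before and 1.0 after adjustment, edgeR exact test), at 37.2 to 50.0 CPM in *Ager*-deleted mice and 47.1 to 56.1 CPM in controls. Of the 14 other trophic factors and receptors, *Met*, the receptor of hepatocyte growth factor, had one of -0.30 ± 0.13 (SE, p = 0.0479 before and 1.0 after adjustment, edgeR exact test).

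Summary levels of cell type markers, as the mean log2(CPM + 1) over each list, had no p under 0.05 in the exact permutation test between genotypes for any of the 10 lists with all 8 mice. The difference (*Ager*-deleted minus control) was -0.12 for motor neuron markers (p = 0.486, exact permutation), -0.10 for astrocyte markers (p = 0.286) and -0.10 for microglial markers (p = 0.543). By the same exact test it was 0.031 for oligodendrocyte markers (p = 0.657) and -0.14 for oligodendrocyte precursor markers (p = 0.2). For tissue that borders the cord it was 0.085 for Schwann cell markers (p = 0.971, exact permutation), -0.00052 for sensory neuron markers (p = 0.914) and -0.18 for meningeal fibroblast markers (p = 0.857). The Schwann cell difference was -0.64 without control E5386, the mouse with the lowest Schwann cell score. For tissue foreign to the cord, the exact test found -2.63 for skeletal muscle markers (p = 0.2) and -1.2 for liver markers (p = 1.0), through the control libraries named above. With 1 mouse left out, 2 lists reached the smallest p of 0.0286 (exact permutation), oligodendrocyte precursor markers at -0.21 without *Ager*-deleted E1776 and skeletal muscle markers at -3.62 without control E6578, and the motor neuron difference was -0.025 without *Ager*-deleted E5568.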

How the data were processed

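Lumbar cord RNA of 8 mice was sequenced from stranded libraries of polyadenylated RNA. Per the labels and the study's methods, the authors trimmed reads with Trimmomatic 0.36, aligned them to mm10 with STAR 2.7.3a and deposited raw counts per gene of GENCODE M25 made with featureCounts (Subread 1.6.3). The strand setting of the counting is not given in the sources used here. The authors also deposited log2 TMM-normalized CPM, used only as a check: values recomputed from the counts for the same 19470 genes differed by at most 4.78e-06. Mice were grouped by the sample titles, and no 2 libraries agreed within sampling noise.

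Genes were filtered with filterByExpr (minimum 10 counts), TMM-normalized and tested in edgeR 4.0.16 (R 4.3.3) with the exact test, which the study's methods name, as they do TMM. Dispersions were from estimateDisp without a design; the study's dispersion setting is not given in the sources used here, and common and tagwise dispersions were an alternative. The Benjamini-Hochberg adjustment ran over all 19470 genes at a threshold of 0.05. Standard errors and 95% intervals are from the quasi-likelihood fit (glmQLFit, glmQLFTest), whose test is given beside the exact test. Values per mouse, as log2(CPM + 1) with a pseudocount of 1 CPM, were compared with an exact permutation test (two-sided, all 70 assignments of the 8 mice). The alternatives were DESeq2 1.42.0, limma-voom (limma 3.58.1), other dispersions, normalizations, filters and pseudocounts, removal of muscle genes, and mice left out.

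Positions, exon lengths and overlaps come from GENCODE M21 (GRCm38, of which mm10 is another name), which precedes the authors' M25; 97.99% of tested genes matched by symbol. Both tests were tried on simulated counts of 19248 genes, 200 of them shifted by 1.5 on the log2 scale: the exact test found 187 of these and made 33 false calls, and the quasi-likelihood test found 179 and made 12. That shift was larger than the fitted difference of any tested member, the largest being -0.67 for *Cntf*. The simulation therefore cannot show how often differences of the members' size would be found.

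The members and all gene lists, written from general knowledge, were chosen with earlier results of these data known. Named genes are the 9 members, *Ager*, pathway genes with an unadjusted p under 0.05 in the exact test, and the 2 genes nearest in pattern to each tested member. Some genes that these rules name are not reported here. Other genes were named for their place in the pathway after their values were seen, as were the marker and overlapping genes. Protein sequences were not used here.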

Additional observations from a re-analysis of the deposited data

Results flagged for a closer look

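Of 54 groups of 4 mice examined, in 6 the highest or lowest mouse was far from the other 3 by Dixon's criterion at the 95% level, which chance gives in about 1 group of 20. Among the controls, *Plg* was at 10.7 CPM in E6732 and at 0.34 to 0.39 CPM in the other 3 mice. In the same mouse the liver marker score, as the mean log2(CPM + 1), was 5.56, against 0.257 to 0.319 in the others.

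The Schwann cell marker score was 2.42 in control E5386 and 5.11 to 5.50 in the other controls, and the meningeal fibroblast marker score was 3.25 there and 5.68 to 6.11 in the others. The oligodendrocyte marker score was 10.4 in control E5642, where the others were at 10.6. Among the *Ager*-deleted mice, the sensory neuron marker score was 0.543 in E5231 and 0.384 to 0.408 in the others, with 3 of its 5 markers below the filter on low counts. None of the 9 members was among these results. *Ngfr* was lowest in the mouse with the low Schwann cell score, and a part of that tissue in the *Ngfr* values was not tested.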

How the results depend on the processing

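No member was called under any of the 18 alternatives run. The number of genes called among all genes, 14 with edgeR's exact test, was 1 with the quasi-likelihood test, 1 with limma-voom, 25 with DESeq2, 78 with common and tagwise dispersions, 8 among genes with at least 1 CPM in 4 mice (where *Cntf* was not tested), 9 without skeletal muscle genes, 67 without controls E5386 and E5642, and 3 to 98 with 1 mouse left out. The cause was not tested. In the pathway 1 gene was called with common and tagwise dispersions and 1 without controls E5386 and E5642, *Plg* in both.

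Values near 0 changed sign. The log2 fold change of *Ret* was -0.0094 without controls E5386 and E5642. That of *Gfra1* was 0.0084 with library size only, where its difference in log2(CPM + 1) was 0.0046, and with 1 mouse left out these values were -0.075 to 0.028 and -0.077 to 0.023. The difference of *Ntf3* was 0.011 in log2(CPM + 0.1) and -0.036 to 0.057 with 1 mouse left out, and that of *Ngfr* -0.60 to 0.16. With 1 mouse left out the score differences were -0.023 to 0.058 for oligodendrocyte, -0.21 to 0.0050 for microglia, -0.64 to 0.39 for Schwann cell, -0.037 to 0.016 for sensory neuron, -0.84 to 0.11 for meningeal fibroblast and -1.66 to 0.11 for liver markers.

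No paired analysis was possible because the mouse IDs pair no mice: the replicate numbers were given in accession order. Depth limits *Ntf3*, *Gdnf* and *Cntf* most, with 4 to 58 counts per mouse. A permutation test of 4 mice against 4 cannot go below p = 0.0286.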
